A study of Mus musculus with 20 samples.

Results

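The miR-29 family comprises 3 mature miRNAs, miR-29a-3p, miR-29b-3p and miR-29c-3p, which were taken by name from the count table (mmu-miR-29a-3p, mmu-miR-29b-3p and mmu-miR-29c-3p there, with 1 row per name). They are 3 of 1915 mature miRNAs listed for mouse, and 3 of 1191 with at least 1 read in serum. The Ames dwarf mouse lacks growth hormone, prolactin and thyrotropin, and outlives its normal littermates. Serum small RNA of female mice was compared in 4 groups of 5 libraries each: normal mice at 5 to 6 months (young normal), normal mice at 21 to 22 months (old normal), Ames dwarf mice at 5 to 6 months (young dwarf) and Ames dwarf mice at 21 to 22 months (old dwarf). All 20 libraries come from the same heterogeneous Ames background, and no treatment is recorded. The labels do not say whether each library is a separate mouse, so p-values measure the spread between these libraries, which may be technical.

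miR-29 miRNAs bind messenger RNAs of collagens, elastin and other matrix proteins, and of the DNA methyltransferases Dnmt3a and Dnmt3b. Fibroblasts and stellate cells lose miR-29 in fibrosis, and miR-29 has been described to rise with age in mouse tissues. All members share their seed, bases 2 to 8, through which a miRNA recognises its targets. In serum, release from fewer cells and release of less RNA per cell cannot be told apart.

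The mature sequences, from RefSeq on GRCm38.p6 (3 of 3 members matched), show how close the members are. Capitals mark the seed.
miR-29a-3p: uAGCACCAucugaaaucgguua
miR-29b-3p: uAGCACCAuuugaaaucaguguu
miR-29c-3p: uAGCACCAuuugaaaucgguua
Counted from 1 at the 5′ end, miR-29a-3p and miR-29c-3p differ by 1 substitution, C10U. miR-29a-3p and miR-29b-3p differ by 4 over the shared length, C10U, G18A, U21G and A22U, and miR-29b-3p is 23 bases long against 22. No other of the 1679 mature names in the RefSeq table has this seed. The number of mismatches allowed in counting is not given in the sources used here, so reads moving between miR-29a-3p and miR-29c-3p cannot be judged from the table.

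The family is made from 4 hairpins in 2 clusters. Mir29a (chromosome 6, 31062660 to 31062747, minus strand, GRCm38) and Mir29b-1 (31063023 to 31063093) lie 275 bases apart. Mir29b-2 (chromosome 1, 195037040 to 195037120, plus strand) and Mir29c (195037547 to 195037634) lie 426 bases apart. In GENCODE M21, Mir29a overlaps no other gene and Mir29b-1 lies over an exon of the long noncoding RNA Gm27019 on the same strand. Mir29b-2 and Mir29c lie over exons of the noncoding transcript A330023F24Rik on the same strand and of Cd46, a complement regulator, on the opposite strand. The hairpins that both give miR-29b-3p are shown with their mature arms in capitals.
Mir29b-1: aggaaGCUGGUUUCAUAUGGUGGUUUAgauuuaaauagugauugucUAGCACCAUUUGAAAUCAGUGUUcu
Mir29b-2: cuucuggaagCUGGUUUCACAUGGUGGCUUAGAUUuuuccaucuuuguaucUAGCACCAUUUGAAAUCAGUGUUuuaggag
Their 3p arms are identical, so reads of miR-29b-3p cannot be assigned to a cluster, whereas miR-29a-3p comes from the first cluster and miR-29c-3p from the second. The rows of miR-29b-3p for its 2 hairpins differed in 1 library, by 2 reads, and the row with the higher total was used.

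The authors' deposited table of hairpins, made from the reads of all libraries together, gives the consensus form found in serum. Capitals again mark the seed.
Mir29a, 3p arm: uAGCACCAucugaaaucgguu
Mir29c, 3p arm: uAGCACCAuuugaaaucgguu
Mir29b-1 and Mir29b-2, 3p arm: uAGCACCAuuugaaaucag
Each consensus in the authors' deposited table starts at base 1 of the mature sequence. Those of Mir29a and Mir29c stop 1 base short of the RefSeq 3′ end, at 21 bases, and those of the miR-29b hairpins stop 4 bases short, at 19 bases. The authors' deposited table lists 0 loop reads for each of the 4 hairpins.

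Total counts per library ran from 1343137 to 4710263 with 1 row per name. The labelled tissue could be checked only by blood markers: the red-cell miRNA miR-451a was present in every library (8408 to 57831 CPM, the count relative to the scaled library size). An index of haemolysis sets miR-451a against miR-23a-3p, as the log2 of their ratio. It stood at 4.30 ± 0.70 in old normal libraries and averaged 5.38 to 5.45 in the other groups (SD, n = 5). The index and the old normal group are therefore partly confounded, and a model with the index as a covariate cannot tell them apart. For miR-451a the index also holds the tested value itself. All 3 members passed the filter on low counts, among 360 miRNAs tested.

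miR-29a-3p made up most of the family in every group. Over all libraries it had 164232 reads, or 92.9% of the family's 176803, against 11559 for miR-29c-3p and 1012 for miR-29b-3p. By level it ranked between 22nd and 29th of the tested miRNAs in each library. miR-29c-3p ranked from 61 to 124 and miR-29b-3p from 162 to 234. A count of miR-29a-3p ranged from 4080 to 13912 per library, of miR-29c-3p from 189 to 1281 and of miR-29b-3p from 24 to 91, so miR-29b-3p had the largest counting error. Mature miRNAs of similar length are compared here per read, and library preparation can favour some ends over others.

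The other arm of each hairpin was scarce. miR-29a-5p had 151 reads in all, 3 to 16 per library, or 1 for every 1088 reads of miR-29a-3p. miR-29c-5p had 73 reads, 0 to 14 per library, or 1 for every 158 reads of miR-29c-3p. The 5p arms of the miR-29b hairpins, which tell the clusters apart, had 6 reads for miR-29b-1-5p in 4 libraries and 21 for miR-29b-2-5p in 9 libraries, too few to compare groups. Of these arms only miR-29a-5p was tested, at means of 2.55 ± 0.99 (old normal), 3.15 ± 0.88 (old dwarf), 3.42 ± 1.65 (young dwarf) and 3.48 ± 0.72 CPM (young normal; SD, n = 5). It did not pass in any comparison (edgeR adjusted p 0.348 to 0.997).

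miR-29a-3p, the abundant member, lay in a narrow range. In young normal replicates 1 to 5 it stood at 2984, 4242, 3480, 2716 and 3857 CPM. In old normal replicates it stood at 3784, 3654, 3516, 3999 and 3137 CPM. Its values in young dwarf replicates were 3187, 3359, 5142, 3067 and 3592 CPM, with replicate 3 above all other libraries. In old dwarf replicates it stood at 3740, 2823, 2443, 2978 and 3619 CPM. The group means were 3121 ± 548 CPM in old dwarf, 3456 ± 622 in young normal, 3618 ± 322 in old normal and 3669 ± 847 in young dwarf serum (SD, n = 5), and each pair of groups overlapped.

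miR-29b-3p, the scarce member with a distinct 3′ end, was highest in old normal serum. It stood at 11.6, 25.5, 14.5, 17.2 and 17.98 CPM in young normal replicates 1 to 5, and at 43.8, 26.0, 23.1, 34.3 and 19.9 CPM in old normal replicates. Of the 5 old normal libraries, 3 lay above every young normal library. The closest case was old normal replicate 2 (26.0 CPM, 29 reads) over young normal replicate 2 (25.5 CPM, 61 reads), a margin smaller than the counting error. Young dwarf replicates held 16.1, 21.8, 33.6, 14.9 and 16.8 CPM. Old dwarf replicates held 16.2, 16.8, 18.6, 19.8 and 29.3 CPM, and 4 of these 5 lay below every old normal library. Among them, old dwarf replicate 4 (19.8 CPM, 29 reads) lay below old normal replicate 5 (19.9 CPM, 58 reads) by less than the counting error. The group means were 17.4 ± 5.20 CPM in young normal, 20.1 ± 5.33 in old dwarf, 20.7 ± 7.72 in young dwarf and 29.4 ± 9.65 in old normal serum (SD, n = 5).

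miR-29c-3p had the largest relative spread in 3 of 4 groups, with a CV of 48.0 to 54.9%; in old normal serum its CV was 29.5%, against 32.8% for miR-29b-3p. In young normal replicates 1 to 5 it stood at 99.5, 399, 276.5, 117.7 and 365.7 CPM. In old normal replicates it stood at 260.5, 238.2, 175.7, 286 and 129.1 CPM. Young dwarf replicates held 127.1, 232.3, 473.5, 237.1 and 251.7 CPM, and old dwarf replicates held 328.4, 121.1, 106.5, 330.9 and 378.1 CPM. The groups overlapped, and the old normal libraries covered the narrowest range. The means were 217.9 ± 64.3 CPM in old normal, 251.7 ± 138.2 in young normal, 253 ± 128.7 in old dwarf and 264.3 ± 127 in young dwarf serum (SD, n = 5). Levels of 1.94%, 12.5%, 7.78% and 1.67% of all tested miRNAs did not overlap between young genotypes, between old genotypes, with age in normal mice and with age in dwarf mice; for the family it was 0 of 3 members each time. In the order of group means of each member, no neighbours differed by more than the larger of their SDs.

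**Figure D1:**
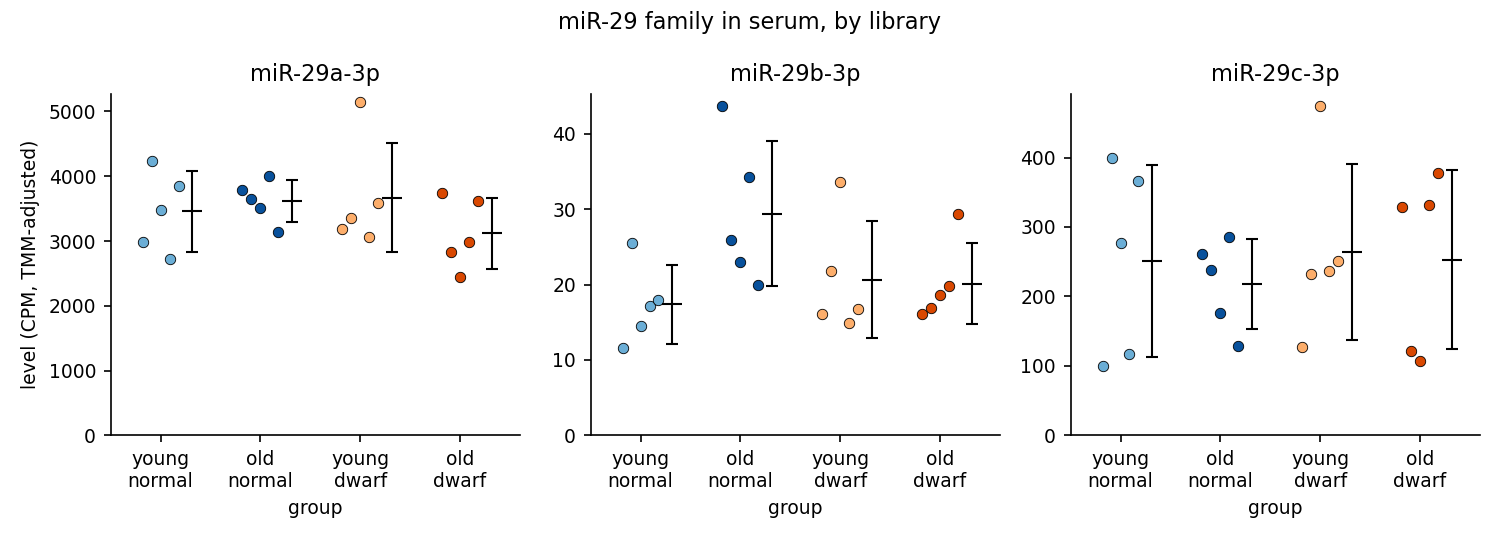
Level of each miR-29 member (CPM, vertical axis from 0) in each of 20 libraries by group; bars give mean ± SD over 5 libraries. miR-29b-3p reached 29.4 ± 9.65 CPM in old normal serum against 17.4 ± 5.20 in young normal serum. For each member the groups overlapped in each pairwise comparison.

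The first comparison asked whether the family differed between genotypes in young mice. miR-29a-3p, miR-29b-3p and miR-29c-3p were at log2 0.09 ± 0.18 (SE), 0.25 ± 0.30 and 0.07 ± 0.43 in young dwarf against young normal serum (edgeR adjusted p 0.925, 0.792 and 0.981). None of the 3 members was called (an adjusted p under 0.05), against 0% of all 360 miRNAs tested in edgeR, where 28 had an unadjusted p under 0.05 and DESeq2 called 6. Neither edgeR nor DESeq2 gave any member an unadjusted p under 0.05 (0 of 3 in each). The 95% interval of miR-29a-3p ran from log2 -0.29 to 0.46, that of miR-29b-3p from -0.37 to 0.87 and that of miR-29c-3p from -0.83 to 0.98. Without young dwarf replicate 3 all members changed sign, to log2 -0.09, -0.02 and -0.26. miR-29c-3p also changed sign without young normal replicate 1 (-0.13) and without young normal replicate 4 (-0.10).

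In old mice, where many serum miRNAs differed between genotypes, the family members did not pass. Of 360 miRNAs, 95 or 26.4% were called between the old genotypes, and 0 of 3 members in edgeR or DESeq2. No member had an unadjusted p under 0.05 in either (0 of 3), against 163 of all 360 miRNAs in edgeR. miR-29a-3p was at log2 -0.21 ± 0.18 (SE) with an interval from -0.59 to 0.16 (edgeR adjusted p 0.371). miR-29b-3p was at log2 -0.54 ± 0.30 with an interval from -1.16 to 0.08 (adjusted p 0.162), and at -0.35 without old normal replicate 1 (adjusted p 0.381), its highest library. miR-29c-3p was at log2 0.22 ± 0.44 with an interval from -0.69 to 1.12 (adjusted p 0.718). With library totals in place of TMM factors, miR-29a-3p turned to log2 0.11, where the median of all miRNAs moved from -0.06 to 0.23. In the same comparison 3 of 4 lymphocyte markers and 1 of 5 platelet and myeloid markers were called lower, and 0 of 5 red-cell, 0 of 3 liver and 0 of 4 tested muscle markers were called (edgeR), against 16.1% called higher and 10.3% lower of all miRNAs. With the haemolysis index in the model none of these 4 calls was kept, and 0 of 360 miRNAs were called in all. The index was itself lower in old normal serum. The summed lymphocyte level was 3063 ± 500 CPM (2557 to 3596) in old dwarf serum against 6211 ± 2782 CPM (3334 to 9693) in old normal serum (SD, n = 5), and its part in the values of the members was not tested.

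With age in normal mice, miR-29b-3p had the largest difference of the family. In old against young normal serum it was at log2 0.76 ± 0.30 (SE) with an interval from 0.14 to 1.38, an unadjusted p of 0.0191 and an adjusted p of 0.0751 in edgeR, and lay above the young normal median in 5 of 5 libraries. miR-29a-3p and miR-29c-3p were at log2 0.07 ± 0.18 and -0.21 ± 0.43 (edgeR adjusted p 0.811 and 0.734), with intervals from -0.31 to 0.44 and from -1.12 to 0.70. Thus 0 of 3 members were called, against 15.6% of all miRNAs. An unadjusted p under 0.05 was found for 1 of 3 in edgeR and in DESeq2, against 138 of all 360 miRNAs in edgeR. By unadjusted p miR-29b-3p ranked 91st. The value of miR-29b-3p moved with the scaling: it passed with upper-quartile factors (log2 0.89, adjusted p 0.0413) and stood at log2 0.26 with library totals (adjusted p 0.648), where the median of all miRNAs was at log2 0.16 and -0.42 respectively, against 0.00. It was at log2 0.50 when only these groups were fitted (adjusted p 0.325).

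Blood-cell miRNAs differed in the same comparison. All 4 lymphocyte markers were called higher in old than in young normal serum, with a summed level of 6211 ± 2782 CPM (3334 to 9693) against 3037 ± 614 CPM (2504 to 4052). Of 5 platelet and myeloid markers 1 was called higher, with a summed level of 63278 ± 8939 CPM (53587 to 75141) against 34541 ± 13141 CPM (20333 to 50661). Of 5 red-cell markers 1, miR-451a, was called lower. Their summed level was nonetheless 460340 ± 72211 CPM (390370 to 581840) against 361210 ± 124590 CPM (230760 to 526880). Its most abundant marker, miR-486a-5p, was at log2 0.59 (edgeR adjusted p 0.147). miR-144-3p, miR-144-5p and miR-16-5p were at log2 -0.69, -0.75 and -0.35 (edgeR adjusted p 0.0696, 0.0607 and 0.205). Over all miRNAs 5% were called higher and 10.6% lower. The sums add CPM, so miR-150-5p and miR-181a-5p nearly set the lymphocyte sum. Likewise miR-191-5p and miR-142a-5p nearly set the platelet and myeloid sum. With the haemolysis index in the model none of the 6 markers called above was called (edgeR). With only the groups compared 1 of 4 lymphocyte and 0 of 5 platelet and myeloid markers were called. The index holds miR-451a, 1 of the 6, and was lower in old normal serum. In the model with the index 1 of 360 miRNAs was called in all. Old normal replicate 1 had the highest summed lymphocyte level and the highest miR-29b-3p, and without this library miR-29b-3p was at log2 0.56 (edgeR adjusted p 0.181). Over 20 libraries miR-29b-3p correlated with the summed lymphocyte markers at r 0.43 (rho 0.22, permutation p 0.05997 and 0.355, adjusted over 18 relations 0.216 and 0.580), at 0.047 within groups and at 0.0023 without the 2 libraries farthest from the marker median. The part of these cells in the level of miR-29b-3p was not tested. With the haemolysis index in the model, miR-29b-3p was at log2 0.88 (adjusted p 0.279).

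In dwarf mice the family did not change detectably with age. In old against young dwarf serum miR-29a-3p was at log2 -0.23 ± 0.18 (SE), miR-29b-3p at -0.04 ± 0.30 and miR-29c-3p at -0.06 ± 0.43 (edgeR adjusted p 0.997 for each). No member was called (0 of 3, also by DESeq2 and at an unadjusted p under 0.05), against 0.556% of all miRNAs, or 2 of 360. In edgeR 14 of the 360 had an unadjusted p under 0.05. The intervals ran from log2 -0.61 to 0.14, from -0.66 to 0.58 and from -0.97 to 0.84. The differences of miR-29b-3p and miR-29c-3p changed sign with upper-quartile factors, to log2 0.08 and 0.06.

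The age effects of the genotypes were then compared directly. For miR-29b-3p the age effect in dwarf mice minus that in normal mice was log2 -0.80 ± 0.42 (SE), with an interval from -1.67 to 0.08 (edgeR adjusted p 0.337). For miR-29a-3p it was -0.30 ± 0.25 and for miR-29c-3p 0.14 ± 0.61 (adjusted p 0.549 and 0.896). Of all 360 miRNAs, 57 had an unadjusted p under 0.05 in edgeR. No member was called (0 of 3 in edgeR and DESeq2, and 0 at an unadjusted p under 0.05), against 0.556% of all miRNAs. A difference between genotypes in how the family ages was therefore not shown. These comparisons share libraries, so their values for a member are not independent.

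**Figure D2:**
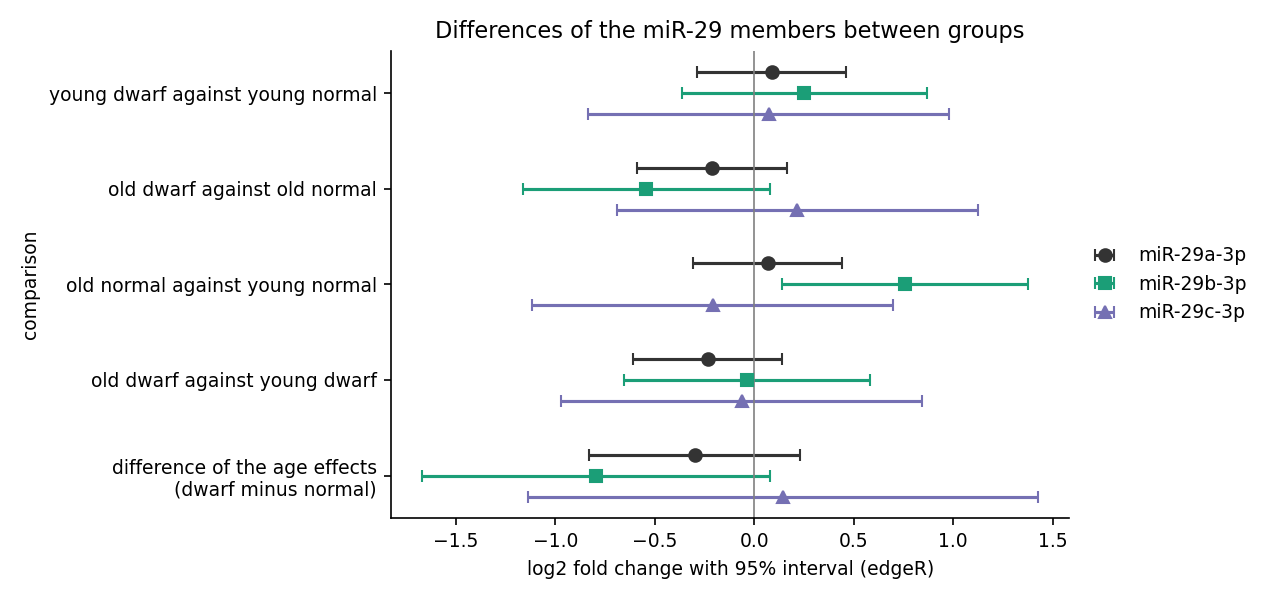
Log2 fold change with 95% interval of each member in the 4 pairwise comparisons and in the difference of age effects (edgeR, 20 libraries). The interval of miR-29b-3p in old against young normal serum, from 0.14 to 1.38, is the one that leaves out 0, and its adjusted p was 0.0751.

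Ratios within a library do not depend on library scaling, and were used to follow the make-up of the family. In young normal replicates 1 to 5 there were 0.390, 0.602, 0.416, 0.632 and 0.466 reads of miR-29b-3p per 100 reads of miR-29a-3p. In old normal replicates there were 1.16, 0.711, 0.656, 0.858 and 0.635, and these groups did not overlap. The nearest libraries, old normal replicate 5 and young normal replicate 4, had 58 reads for 9139 and 61 for 9650. That margin is smaller than the counting error. Young dwarf replicates held 0.506, 0.650, 0.654, 0.487 and 0.466, and old dwarf replicates 0.432, 0.597, 0.761, 0.664 and 0.810. Old dwarf libraries overlapped every other group.

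The log2 ratio of miR-29b-3p to miR-29a-3p was -6.97 ± 0.35 in old normal and -7.63 ± 0.30 in young normal serum (SD, n = 5), a difference of 0.66. Its 2-sided exact permutation p was 0.00794, the smallest that 5 against 5 libraries allow, and 0.0635 when adjusted over 8 ratio tests. For comparison, the ratios to miR-29a-3p of 7.8% of the 359 other tested miRNAs did not overlap between these groups, 2.79% in the higher direction. In the other comparisons the share was 1.95% between young genotypes, 12.8% between old genotypes and 1.67% with age in dwarf mice, and both family ratios overlapped there. The difference was 0.53 without old normal replicate 1 (exact, adjusted p 0.127). It was 0.23 in old against young dwarf, 0.15 in young dwarf against young normal and -0.28 in old dwarf against old normal serum (exact permutation tests, adjusted p 0.622 for each). In each library this ratio rests on 24 to 91 reads of miR-29b-3p.

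The ratio of miR-29c-3p to miR-29a-3p, which sets the second cluster against the first if reads are assigned to the right member, did not separate the groups. Old normal serum held 5.93 ± 1.32 reads of miR-29c-3p per 100 reads of miR-29a-3p, young normal serum 6.90 ± 2.89, young dwarf serum 6.97 ± 1.90 and old dwarf serum 7.80 ± 3.28 (SD, n = 5). Single libraries ran from 3.34 in young normal replicate 1 to 11.1 in old dwarf replicate 4. The largest difference was log2 0.31, in old dwarf against old normal serum (exact permutation test, adjusted p 0.622), and the others lay between -0.13 and 0.10 (exact, adjusted p 0.889).

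**Figure D3:**
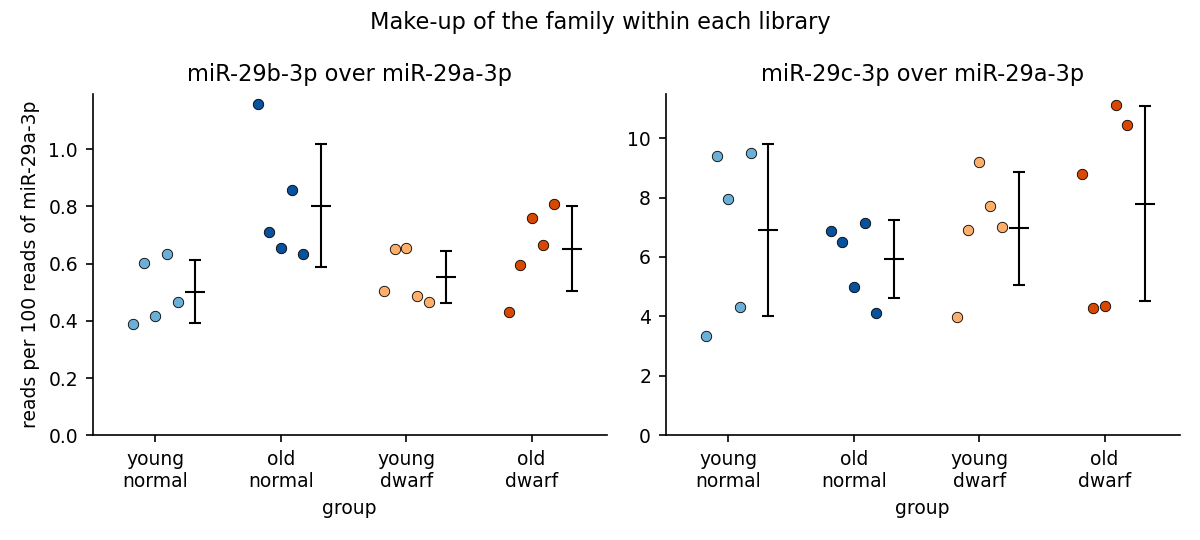
Reads of miR-29b-3p (left) and miR-29c-3p (right) per 100 reads of miR-29a-3p in each library; bars give mean ± SD over 5 libraries. All old normal libraries lie above the young normal libraries for miR-29b-3p, from 0.635 against at most 0.632, while miR-29c-3p runs from 3.34 to 11.1 with overlap of all groups.

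The members differed in how much they varied within groups. The SD of log2 CPM within groups was 0.25 for miR-29a-3p, 0.41 for miR-29b-3p and 0.76 for miR-29c-3p, against a median of 0.60 over the 360 tested miRNAs. miR-29a-3p had the 15th smallest spread of all. It also had the smallest among the 8 miRNAs within 0.5 log2 units of its level. miR-29c-3p was 20th of 25 at its level, where the median was 0.42, and miR-29b-3p 7th of 45 with a median of 0.58.

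**Figure D4:**
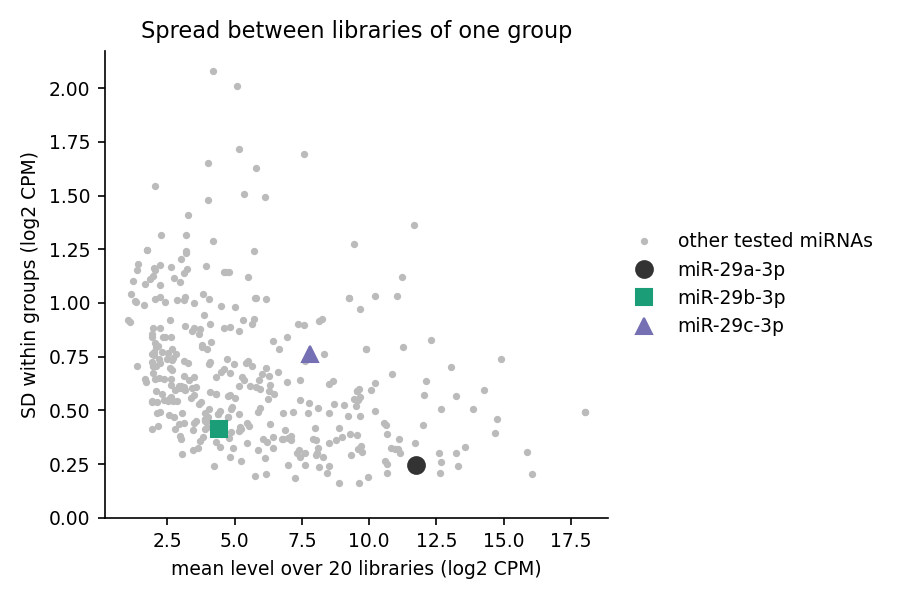
Spread within groups (SD of log2 CPM) against mean level (log2 CPM) for the 360 tested miRNAs, with the members marked. miR-29a-3p (0.25) lies at the lower edge for its level and miR-29c-3p (0.76) in the upper part.

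Within groups, miR-29a-3p and miR-29c-3p were above or below their group means together in 18 of 20 libraries. All 3 members were above in 6 libraries and below in 7. Over 20 libraries the correlation of log2 CPM within groups was 0.87 between miR-29a-3p and miR-29c-3p, 0.67 between miR-29a-3p and miR-29b-3p and 0.65 between miR-29b-3p and miR-29c-3p, given as a description since the points share library and scaling. Reads moving between miR-29a-3p and miR-29c-3p, which differ by 1 base, could not be judged here either. miR-29c-3p lay farther from its group mean than miR-29a-3p in 18 of 20 libraries, all but young dwarf replicates 2 and 4, for example by log2 0.96 against 0.51 in young dwarf replicate 3 and by -1.11 against -0.19 in young normal replicate 1.

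**Figure D5:**
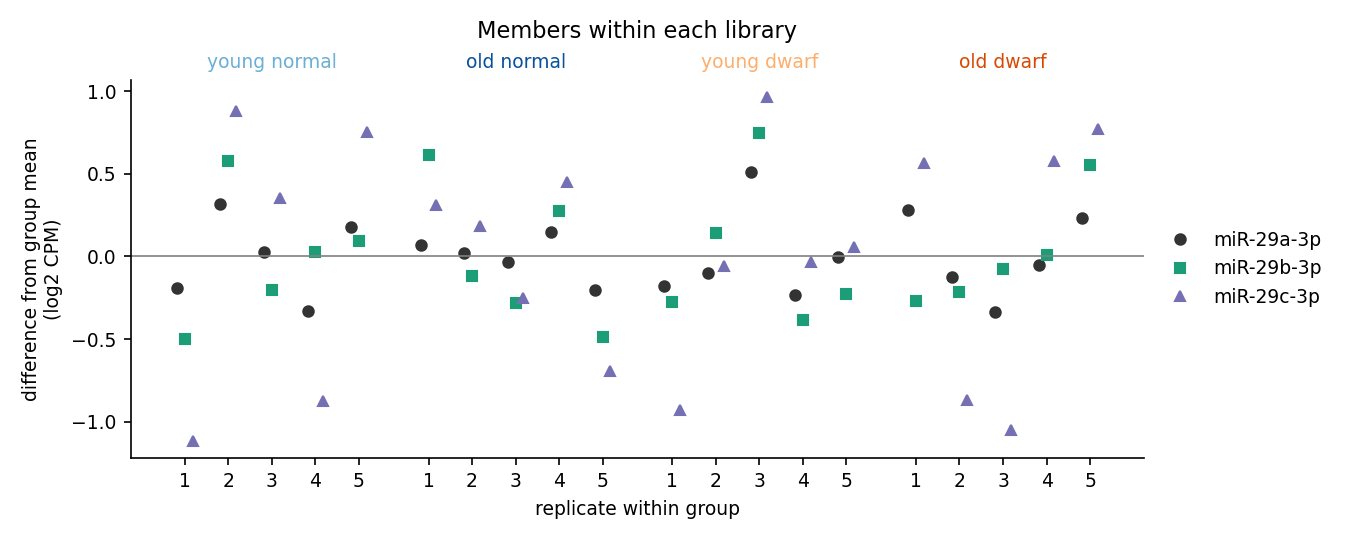
Difference of each member from its group mean (log2 CPM) in each library, by replicate within group. miR-29a-3p and miR-29c-3p lie on the same side of 0 in 18 of 20 libraries, and miR-29c-3p lies farther from 0 in 18 of 20, all but young dwarf replicates 2 and 4.

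Levels of miR-29c-3p went against the summed levels of platelet and myeloid markers and of red-cell markers. Its relation to the lymphocyte sum did not pass (r -0.22, rho -0.47, permutation test, adjusted p 0.584 and 0.127). Its relation to the haemolysis index, which holds the red-cell miRNA miR-451a, had the other sign and did not pass (r 0.23, rho 0.35, permutation test, adjusted p 0.584 and 0.323). Its log2 CPM correlated with the summed level of the 5 platelet and myeloid markers at r -0.68 over 20 libraries (Spearman rho -0.61, permutation p 0.00132 and 0.00431, adjusted over 18 relations 0.0102 and 0.0259). Within groups r was -0.89, and r over all libraries was -0.71 without the 2 libraries farthest from the marker median. The permutations shuffled all 20 libraries without regard to group, and no r within groups was tested. With the 5 red-cell markers r was -0.67 (rho -0.65, permutation p 0.00141 and 0.00293, adjusted 0.0102 and 0.0259), -0.77 within groups and -0.56 without the 2 farthest libraries. With the muscle markers r was 0.59 (rho 0.66, permutation p 0.00574 and 0.00201, adjusted 0.0258 and 0.0259), 0.69 within groups and 0.76 without the 2 farthest. Each sum adds CPM, so its most abundant markers set it. In young normal serum miR-133a-3p averaged 3931 CPM of the muscle sum's 3962.5, and miR-486a-5p 260830 of the red-cell sum's 361210. Among platelet and myeloid markers miR-191-5p and miR-142a-5p averaged 18689 and 14746 CPM of 34541. miR-29a-3p correlated with the red-cell sum at r -0.65 (rho -0.54, permutation p 0.0017 and 0.0151, adjusted 0.0102 and 0.0678), at -0.80 within groups and at -0.45 without the 2 farthest libraries. With the platelet and myeloid sum and the muscle sum it stood at r -0.37 and 0.31 (permutation test, adjusted p 0.332 and 0.429), and at -0.72 and 0.56 within groups. With the red-cell, platelet and myeloid, and muscle sums miR-29b-3p did not pass (adjusted p 0.790 for each). Its r within groups was -0.52, -0.41 and 0.35. The red-cell sum ran from 207840 to 581840 CPM, and what these relations rest on was not tested. The relations were chosen after the values were seen.

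By the fixed measure, the Pearson correlation of log2 CPM with the summed members over 20 libraries, the tested miRNAs most like the family were let-7f-2-3p (0.81), miR-511-3p (0.75), miR-378b (0.71), miR-24-3p (0.70) and miR-22-5p (0.69). Within groups these stood at 0.80, 0.73, 0.78, 0.86 and 0.71. miR-511-3p and let-7f-2-3p had low levels, 3.77 ± 1.85 and 6.81 ± 2.65 CPM in young normal serum (SD, n = 5).

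Other miRNAs known for roles in fibrosis and matrix are given for context. This list and that of the next paragraph were chosen with earlier results of these data known. Of 18 listed, all were tested, and in old dwarf against old normal serum 5 were called higher and 1 lower, against 16.1% and 10.3% of all miRNAs. The list median was log2 0.65, against -0.06 over all. With the haemolysis index in the model 0 of 18 were called, and 0 of 360 miRNAs in all; without old dwarf replicate 4, 3 were called higher. miR-199a-3p and miR-199a-5p, arms of a miRNA of mesenchymal cells, rose by log2 2.11 ± 0.57 and 2.31 ± 0.64 (SE, edgeR adjusted p 0.0121 and 0.0133). miR-101a-3p and miR-30a-5p were higher in old dwarf serum by log2 1.29 ± 0.35 and 0.77 ± 0.21 (edgeR adjusted p 0.0121 and 0.0135). The fifth, miR-143-3p, a miRNA of smooth muscle, was higher by log2 1.34 ± 0.46 (adjusted p 0.0381), and the immune miRNA miR-155-5p, named after its value was seen, was lower, at log2 -1.35 ± 0.40 (adjusted p 0.0196). In old against young normal serum 1 of 18 was called higher and 3 lower, against 5% and 10.6% of all. With the haemolysis index in the model 0 of 18 were called, and the count called lower was 8 with DESeq2, with library totals and without young normal replicate 1. miR-199a-3p and miR-199a-5p were at log2 -2.31 and -2.23, let-7d-5p at -0.74 and miR-155-5p at 1.75 (adjusted p 0.0125, 0.0214, 0.0125 and 0.0115). None of the 18 was called in the other comparisons (edgeR). miR-133a-3p is also on the muscle list, and miR-155-5p on the lymphocyte list.

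Of 6 miRNAs linked to DNA methylation enzymes, the other group of miR-29 targets, 2 were called higher in old dwarf against old normal serum, miR-101a-3p and miR-143-3p, which also stand on the fibrosis list. Over all miRNAs 16.1% were called higher there. The median of the 6 was log2 0.41, against -0.06 over all, and 0 of 6 were called with the haemolysis index in the model. Leaving out old normal replicate 1, 2 or 3, young dwarf replicate 2 or old dwarf replicate 1, 4 or 5 left 1 of 6 called. None was called in the other comparisons, where 0%, 15.6%, 0.556% and 0.556% of all miRNAs were called in young dwarf against young normal, old against young normal, old against young dwarf and the difference of age effects.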

How the data were processed

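The values tested were deposited whole-number read counts, 1 column per library and 1 row per mature miRNA and hairpin it comes from, per the file headers (2241 rows). Bowtie 0.12.8, bedtools, edgeR and GRCm38 (mm10) are named without a role in the submitters' processing notes. RPM values made by the authors matched each count over its column sum to within 0.005 RPM and were not tested. The miRDeep2 table of hairpins pools all libraries. No sample column was left unused (0 columns).

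For each name the row with the highest total was kept. Libraries of 1343137 to 4710263 counts were scaled with TMM factors. The filter of edgeR (minimum count 10) left 360 miRNAs. edgeR 4.0.16 (limma 3.58.1, R 4.3.3) was fitted to all 20 libraries with a coefficient per group, its quasi-likelihood test was adjusted by Benjamini-Hochberg over 360 miRNAs, and DESeq2 1.42.0 was an alternative. The scripts were tested on simulated data. The SE is the size of the log2 fold change over the square root of F. Ratios used counts plus 1 and 2-sided exact permutation tests (scipy 1.17.1). The permutation tests of correlations used 100000 resamples, which shuffled all 20 libraries without regard to group.

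Named were the members, their 5p arms, the 5 miRNAs most like their sum, and called members of the lists. Members and lists were chosen with earlier results of these data known. Errors cover the spread between libraries, and amplified reads are not independent molecules.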

Additional observations from a re-analysis of the deposited data

Results flagged for a closer look

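Among 20 groups of 5 values tested (12 of levels and 8 of ratios), 2 held a library far from the others by Dixon's test, and chance flags about 1 in 20. Young dwarf replicate 3 held 5142 CPM of miR-29a-3p, against 3067 to 3592 CPM in the other young dwarf libraries. It also had the highest summed level of the 3 liver markers of any library, 22700 CPM, and the lowest red-cell sum, 207840 CPM. The liver sum is nearly all miR-192-5p, which averaged 12060 of 12192 CPM in young dwarf serum. Old dwarf replicate 5 held 29.3 CPM of miR-29b-3p, against 16.2 to 19.8 CPM in the other old dwarf libraries.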

How the results depend on the processing

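No member was called under any alternative except miR-29b-3p in old against young normal serum, with upper-quartile factors (log2 0.89). Leaving out libraries gave it log2 0.56 to 0.92 (edgeR adjusted p 0.0555 to 0.181). Of 536 alternative values 495 kept direction and side of the threshold, 1 became stronger and 40 reversed, all in differences that were not called; the causes were not tested. With library totals miR-29a-3p turned to log2 0.11 between old genotypes and to -0.45 with age in normal mice, where it was also -0.0135 with DESeq2, -0.0597 with no filter and -0.20 with only the groups compared. With the haemolysis index as a covariate miR-29c-3p turned to log2 -0.13 between old genotypes, 0.14 with age in normal mice and -0.21 for the difference of age effects. With age in dwarf mice miR-29b-3p turned to log2 0.0775 with upper-quartile factors, 0.0223 with identical names counted once and 0.00478 with only the groups compared, and miR-29c-3p to 0.0624 and 0.00907 with the first pair of settings.

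Leaving out each library gave, between young genotypes, log2 -0.0858 to 0.17 for miR-29a-3p, -0.0195 to 0.42 for miR-29b-3p and -0.26 to 0.30 for miR-29c-3p. Between old genotypes miR-29c-3p ran from -0.000625 to 0.42. With age in normal mice miR-29a-3p ran from -0.00177 to 0.14 and miR-29c-3p from -0.41 to 0.0159. With age in dwarf mice miR-29b-3p ran from -0.18 to 0.20 and miR-29c-3p from -0.25 to 0.23. The difference of age effects of miR-29c-3p ran from -0.0748 to 0.44. The log2 ratio of miR-29c-3p to miR-29a-3p ran from -0.15 to 0.27 between young genotypes, -0.36 to 0.0187 with age in normal mice and -0.0925 to 0.28 in dwarf mice.

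The count of all miRNAs called was 0 between young genotypes, against 6 with DESeq2, 1 with no filter and 1 with the haemolysis index. Between old genotypes it was 95, against 63 with only the groups compared, 0 with the haemolysis index and 51 to 143 without single libraries (old dwarf replicates 5 and 2). With age in normal mice it was 56 (18 higher, 38 lower), against 117 with DESeq2, 106 with library totals (9 higher, 97 lower), 34 with only the groups compared, 1 with the haemolysis index and 29 to 123 without single libraries (young normal replicates 5 and 1); upper-quartile factors gave 33 higher and 36 lower. With age in dwarf mice it was 2, against 0 with library totals or only the groups compared, 1 with precursor rows summed and 0 to 2 without single libraries. For the difference of age effects it was 2, against 20 with DESeq2, 13 with no filter, 0 with upper-quartile factors, library totals, precursor rows summed or the haemolysis index, and 0 to 3 without single libraries.

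The labels do not say whether replicate numbers pair libraries. In deviations from group means, 13 of 30 same-numbered pairs correlated above 0.1, over a range from -0.68 to 0.81. Between young normal and young dwarf replicates 1 to 5 the values were 0.81, 0.25, 0.53, -0.22 and 0.33. Between young normal and old dwarf replicates 1 to 5 they were -0.61, -0.62, -0.43, -0.60 and 0.65. For 3 of 20 libraries the closest library of another group had the same number. These values do not settle whether libraries were paired. With the replicate block miR-29b-3p with age in normal mice was at log2 0.78 (adjusted p 0.107), and 38, 92, 0 and 0 miRNAs were called with age in normal mice, between old genotypes, with age in dwarf mice and for the difference of age effects. Depth limits miR-29b-3p most (24 to 91 reads per library).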

Other observations

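Measured for each member separately, a choice made after the values were seen, the miRNAs with the closest pattern over 20 libraries differed between members. For miR-29c-3p they were miR-378b, miR-193a-3p, miR-574-5p, miR-378a-3p and miR-27b-3p, with a Pearson correlation of log2 CPM of 0.85, 0.84, 0.82, 0.81 and 0.81, and of 0.90, 0.85, 0.88, 0.86 and 0.91 within groups. For miR-29b-3p they were led by miR-146a-5p, a miRNA induced in inflammation, and miR-10b-5p (0.75 and 0.68, and 0.63 and 0.69 within groups). For miR-29a-3p they were led by let-7f-2-3p and miR-511-3p (0.81 and 0.75). These are descriptions over libraries that share depth and scaling.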
